A study of Mus musculus with 4 samples.

Results

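Claudin RNA was measured in bulk RNA from mouse lungs with 4T1 metastases, for 10 claudin genes (Cldn1, Cldn2, Cldn3, Cldn4, Cldn5, Cldn6, Cldn7, Cldn12, Cldn18 and Cldn23) among 56748 genes in the count table. The genes were taken by name, and they were chosen with their values in these samples known. Their levels and differences are therefore a description, and no test is attached to them. They were grouped by the tissue each claudin is best known from, but each library is a bulk RNA sample, so the cell that carried a transcript was not measured.

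The series analysed here holds 4 libraries, 2 from each of 2 groups. The host was the female BALB/cJ mouse, injected at 7 weeks of age through the tail vein with 4T1-FLuc, a luciferase-marked line of mouse triple-negative mammary carcinoma. The saline group, whose treatment label reads PBS control, carried the same tumour cells and received no active agent. The other group received both the CD276-DM1 antibody-drug conjugate (ADC), in which an antibody against CD276 carries the microtubule poison mertansine, and cmLumiOpto, an exosome-associated viral gene therapy that is built to depolarise the mitochondria of cancer cells with light from luciferase. The labels give 16 mg/kg for the conjugate and write the gene therapy as cmLumi-Olap, while the study's methods give 8 mg/kg. Treatment lasted 3 weeks. Single-agent samples were not analysed here, so the contributions of the conjugate and the gene therapy cannot be told apart. The sources differ on the material: the labels call it 4T1 tumour in lung and describe RNA from collected tumour cells, while the methods describe dissociated lung tissue with its metastases. How much lung each library held was therefore not given, and the transcripts of lung endothelium, alveoli and airway described beside the claudins were present in all 4 libraries. The methods speak of 4 biological samples per group, of which 2 per group were analysed here. The labels do not tie libraries to single mice, and the standard deviations given measure only the spread between these libraries. The standard errors of log2 fold changes come from the fit, which also draws on the spread of other genes in these libraries.

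Claudins are membrane proteins whose extracellular loops join those of the neighbouring cell to form tight junction strands, and the set of claudins in a strand decides how leaky it is and for which ions. In lung, Cldn5 is the claudin of the vascular endothelium, Cldn18 has a lung form that seals the alveolar epithelium, and Cldn3, Cldn4 and Cldn7 are claudins of alveolar and airway epithelium. Cldn3, Cldn4 and Cldn7 are also made by many carcinomas, and loss of claudin expression marks the claudin-low class of mammary tumours.

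The libraries held between 15263375 and 19675436 counts in genes, and 3 counts corresponded to between 0.146 and 0.202 CPM (the usual scaling of a gene's count to its library's total, here corrected by the trimmed mean of M values). Across the 15320 genes with enough counts for a test, edgeR's quasi-likelihood test placed 0 at an adjusted p under 0.05, which is 0% of them. At an unadjusted p under 0.05 it placed 3553 genes, and DESeq2 and edgeR's exact test put 1332 and 1170 genes past the adjusted threshold. With 2 libraries against 2, an exact two-sided permutation test of a single gene cannot go below p = 0.333. Saline replicate 2 held the least RNA of lung epithelium, with 1096 counts of the club cell gene Scgb1a1 against 17349 in saline replicate 1. ADC/cmLumiOpto replicate 2 stood apart in neutrophil RNA, with 63353 counts of S100a8 against 2526 to 7452 in the other 3 libraries. The claudin values that turn on 1 library are given with and without it.

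The 10 claudins together held 340 and 218 CPM in the saline libraries and 518 and 451 CPM in the ADC/cmLumiOpto libraries, so the groups did not overlap. Of the 10 genes, 9 had enough counts for a fold change. The fold change was positive for 8 of the 9 and negative for Cldn4. In 6 of the 9 (Cldn3, Cldn5, Cldn7, Cldn12, Cldn18 and Cldn23) both treated libraries lay above both saline libraries, and in 0 of the 9 did both lie below. Among all genes tested, 28.1% had both treated libraries above both saline libraries and 28.8% had both below. Cldn1, Cldn2 and Cldn4 had overlapping groups. By the tests across all genes, which are given for these chosen genes only as counts, 0 of the 9 had an adjusted p under 0.05 by edgeR's quasi-likelihood test and 4 had an unadjusted p under 0.05, where the share of all genes was 23.2%. DESeq2 placed 3 past the adjusted threshold (9.63% of all genes with an adjusted p) and edgeR's exact test 4 (7.64%). The count was also 4 without the filter on low counts (8.84%) and 4 with the sample number as a block (3.96%). A log2 fold change of at least 1 was found for 5 of the 9, and for 9.31% of all genes tested. The median log2 fold change of the 9 genes was 1.14, against 0.03 over all genes tested.

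Levels were compared between genes only as CPM per kilobase of the length given in the table. In the saline group Cldn4 was the most abundant claudin, with a mean of 73.7 CPM per kb (range 62.6 to 84.8), followed by Cldn5 with 29.9 (23.9 to 35.8). Cldn18 (8.63), Cldn3 (7.47), Cldn2 (6.90) and Cldn12 (6.25) came next, and each overlapped its neighbour in this order. Cldn7 followed at 1.56 CPM per kb. Cldn23 (0.371) and Cldn1 (0.331) overlapped each other, and Cldn6 was the lowest at 0.0769. In the ADC/cmLumiOpto group Cldn5 stood first by its mean, at 77.3 CPM per kb (56.3 to 98.3), but it overlapped Cldn4 at 59.9 (56.0 to 63.8). Cldn18 at 32.9 and Cldn3 at 24.6 overlapped each other, as did Cldn2 at 11 and Cldn12 at 8.46. Below these stood Cldn7 at 6.33 CPM per kb, and Cldn23, Cldn1 and Cldn6 kept the last 3 places.

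**Figure D1:**
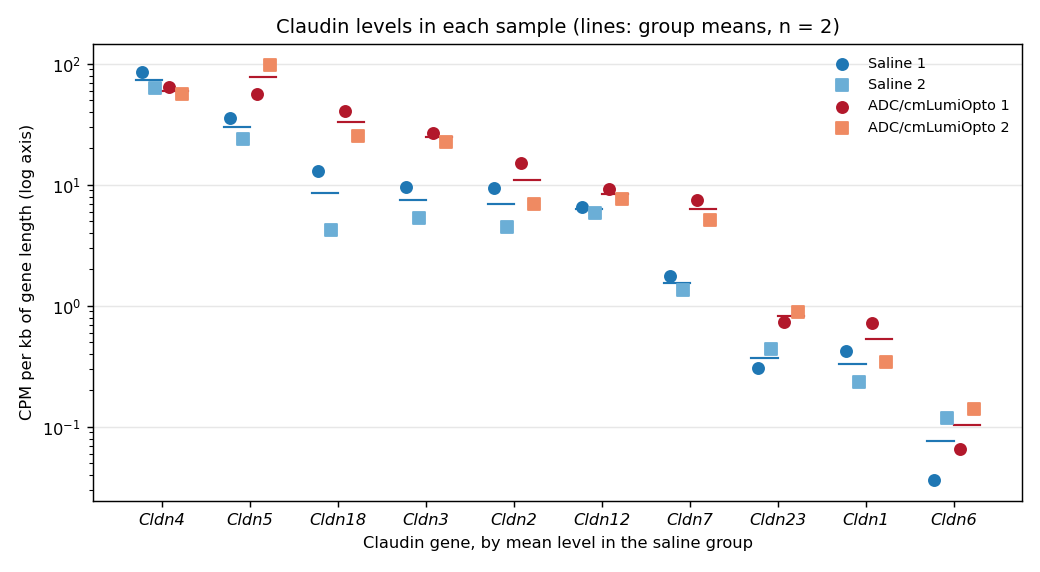
Level of each claudin in every library, as CPM per kb of gene length on a log axis, with lines at the means of 2 libraries. Cldn4 leads in both saline libraries, while in the treated group the mean of Cldn5 (77.3) lies above that of Cldn4 (59.9).

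The make-up of the claudin RNA differed between the groups. As a share of the summed CPM per kb of the genes named Cldn with a number, which leaves out the claudin-domain genes Cldnd1 and Cldnd2, Cldn4 made up 51.5% and 56.7% in the saline libraries and 28.2% and 24.6% in the treated libraries. Cldn18 made up 7.91% and 3.83% against 17.9% and 11.1%, and Cldn3 made up 5.82% and 4.85% against 11.8% and 9.91%. Cldn4 thus held the largest share in 3 of the 4 libraries, and in ADC/cmLumiOpto replicate 2 that place went to Cldn5. The share of Cldn5 was 21.8% and 21.6% in the saline libraries, 24.9% in ADC/cmLumiOpto replicate 1 and 43.2% in replicate 2. The share of Cldn7 was 1.07% and 1.22% against 3.33% and 2.26%, and the groups did not overlap. Shares of Cldn2 (3.08% to 6.64%) and Cldn12 (3.36% to 5.34%) overlapped between the groups. The whole to which these shares refer was itself larger in the treated libraries, at 226 and 227 CPM per kb against 165 and 110, and the 10 genes supplied 97.5% to 98.3% of it.

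**Figure D2:**
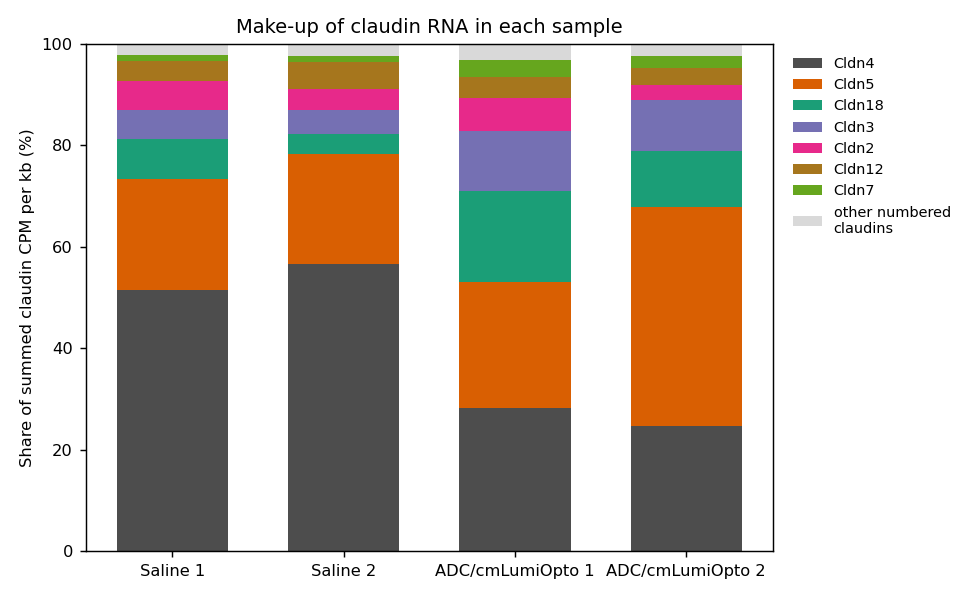
Share of each claudin in the summed CPM per kb of the numbered claudin genes (without Cldnd1 and Cldnd2) of each library, in percent. Cldn4 fills 51.5% and 56.7% of the saline bars and 28.2% and 24.6% of the treated bars.

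The sequences before the transcription starts of Cldn5, Cldn18, Cldn3 and Cldn4 are printed because these are the leading claudins of endothelium, alveoli and epithelium in these libraries. Each run is the 250 bases before a RefSeq start, 5′ to 3′ on the gene's own strand in GRCm38.p6. Capitals mark matches, on either strand, to a TATA box (TATAAA), a GC box (GGGCGG), the E-box bound by Snail and Zeb factors (CACCTG), a grainyhead site (AACCNGTT) and an NKX2 core (CAAGTG). Cldn18 has an upstream and a downstream start, and the gene counts do not tell their transcripts apart.
Cldn5, chr16:18776597-18776846, + strand: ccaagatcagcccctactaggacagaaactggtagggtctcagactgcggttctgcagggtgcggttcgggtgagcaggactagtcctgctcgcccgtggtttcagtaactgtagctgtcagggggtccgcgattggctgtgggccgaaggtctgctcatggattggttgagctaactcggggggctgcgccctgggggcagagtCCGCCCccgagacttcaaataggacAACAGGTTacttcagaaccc
Cldn18 upstream start, chr9:99717268-99717517, - strand: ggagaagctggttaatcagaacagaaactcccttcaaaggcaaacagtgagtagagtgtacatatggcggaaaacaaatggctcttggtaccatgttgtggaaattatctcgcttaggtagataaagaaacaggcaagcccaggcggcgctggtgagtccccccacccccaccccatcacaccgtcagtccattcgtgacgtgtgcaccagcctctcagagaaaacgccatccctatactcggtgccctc
Cldn18 downstream start, chr9:99710064-99710313, - strand: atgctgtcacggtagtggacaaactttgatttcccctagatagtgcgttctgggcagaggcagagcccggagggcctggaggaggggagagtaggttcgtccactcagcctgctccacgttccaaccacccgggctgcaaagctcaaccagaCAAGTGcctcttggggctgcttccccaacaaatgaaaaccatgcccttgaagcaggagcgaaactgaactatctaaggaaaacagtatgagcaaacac
Cldn3, chr5:134985964-134986213, + strand: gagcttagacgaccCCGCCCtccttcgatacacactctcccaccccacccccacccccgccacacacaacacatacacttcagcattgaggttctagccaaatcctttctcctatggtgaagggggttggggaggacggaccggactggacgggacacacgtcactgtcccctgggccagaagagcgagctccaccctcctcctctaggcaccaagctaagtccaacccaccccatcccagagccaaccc
Cldn4, chr5:134946935-134947184, - strand: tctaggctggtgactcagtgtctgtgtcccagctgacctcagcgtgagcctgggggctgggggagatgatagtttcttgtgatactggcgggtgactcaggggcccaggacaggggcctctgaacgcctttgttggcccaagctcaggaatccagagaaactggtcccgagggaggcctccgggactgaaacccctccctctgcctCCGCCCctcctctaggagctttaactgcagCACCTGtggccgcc

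Windows of this kind were found for 9 of the 10 claudins, 13 windows in all. The Cldn5 window held a GC box that begins 45 bases before the start and a grainyhead match, on the other strand, at 20 bases. The Cldn4 window held a GC box at 44 bases and the E-box at 14 bases, and the Cldn3 window held a GC box at 236 bases. The downstream Cldn18 window held the NKX2 core at 98 bases, and the upstream one held none of these letters. Over 32851 RefSeq windows of the same length, 32.7% held the GC box, 17.2% the E-box, 12.4% the TATA box, 11.6% the NKX2 core and 1.79% the grainyhead site. The GC content was 59.6% for Cldn5, 60.8% for Cldn3 and 62.0% for Cldn4, and 52.0% and 54.0% for the Cldn18 windows, against a median of 52.4%. These matches describe the letters only. Binding was not measured, and these windows do not show which Cldn18 start gives the lung form.

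Cldn5 is the main sealing claudin of the vascular endothelium. The Cldn5 gene (ENSMUSG00000041378) lies on the + strand at chr16:18595597-18597012 of mm39, the build named in the labels. It had 50.8 and 33.8 CPM in the saline libraries and 79.7 and 139 CPM in the ADC/cmLumiOpto libraries, so both treated libraries lay above both saline ones. The means were 42.3 ± 12 and 109 ± 42.0 CPM (SD, n = 2 each), and the log2 fold change was 1.37 with a standard error (SE) of 0.32. Without ADC/cmLumiOpto replicate 2, the library rich in neutrophil RNA, the log2 fold change was 0.91.

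The list of 14 endothelial markers was set beside it. Their summed level was 688 and 507 CPM in the saline libraries and 761 and 1136 CPM in the treated libraries. Of the 14, 9 had both treated libraries above both saline libraries, against 28.1% of all genes tested. Pecam1, an adhesion molecule of endothelial junctions, had a log2 fold change of 0.52, and Cdh5, the cadherin of those junctions, one of 0.02. Over the 14 markers it ran from -0.17 for Kdr to 1.85 for Calcrl, with a median of 0.49. The 1.37 of Cldn5 lay inside this range. Calcrl, Ramp2, Egfl7 and Tek were above Cldn5, and the other markers were below it. The libraries stood in the same order by Cldn5 and by the mean of the markers. Cldn5 exceeded the marker mean by 0.51, 0.52, 0.97 and 1.19 on the log2 CPM scale in saline 1, saline 2, ADC/cmLumiOpto 1 and ADC/cmLumiOpto 2. The treated mean of this excess was 0.57 above the saline mean, and 0.23 after the trend of fold change on gene length was removed. In these bulk libraries, more cells of a type and more RNA per cell cannot be told apart, here or for the other claudins.

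Cldn18 is the claudin of the alveolar epithelium and stomach. Its gene (ENSMUSG00000032473) lies on the - strand at chr9:99571514-99599320. The saline libraries had 58.0 and 18.9 CPM and the ADC/cmLumiOpto libraries 180.2 and 113 CPM. The saline libraries differed from each other by more than 3-fold, and both still lay below the treated ones. The means were 38.4 ± 27.7 and 146 ± 47.8 CPM (SD, n = 2 each), with a log2 fold change of 1.93 (SE 0.51). Without saline replicate 1 the log2 fold change was 2.94, and over the removal of each library in turn it ran from 1.34 to 2.94.

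Alveolar markers moved with Cldn18 from library to library. The 11 markers of alveolar type 2 cells, which make surfactant, summed to 1933 and 564 CPM in the saline libraries and to 6310 and 5328 CPM in the treated libraries, with 9 of 11 separated upward. The 10 markers of alveolar type 1 cells, the thin cells of gas exchange, summed to 692 and 497 CPM against 1209 and 1230 CPM, with 8 of 10 separated upward. Among all genes tested, 28.1% were separated upward. The surfactant gene Sftpc had a log2 fold change of 2.70, while Abca3 (-0.23) and Etv5 (-0.53) of the same list had both treated libraries below both saline libraries. Among the type 1 markers, Ager had 2.13 and Igfbp2 -0.07. Cldn18 lay below the mean type 2 marker by 0.24 to 0.80 on the log2 CPM scale in all 4 libraries, and its difference between the groups, 2.10, was close to that of the type 2 markers, 1.95. Against the type 1 markers, whose difference was 1.28, Cldn18 was 0.61, -0.26, 1.32 and 0.67 above the mean in saline 1, saline 2, ADC/cmLumiOpto 1 and ADC/cmLumiOpto 2. The order of the 4 libraries by Cldn18 was also their order by the mean log2 CPM of either alveolar list, though by summed CPM the type 1 markers were slightly higher in ADC/cmLumiOpto replicate 2 than in replicate 1. What part these cell types had in the difference of Cldn18 was not tested.

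**Figure D3:**
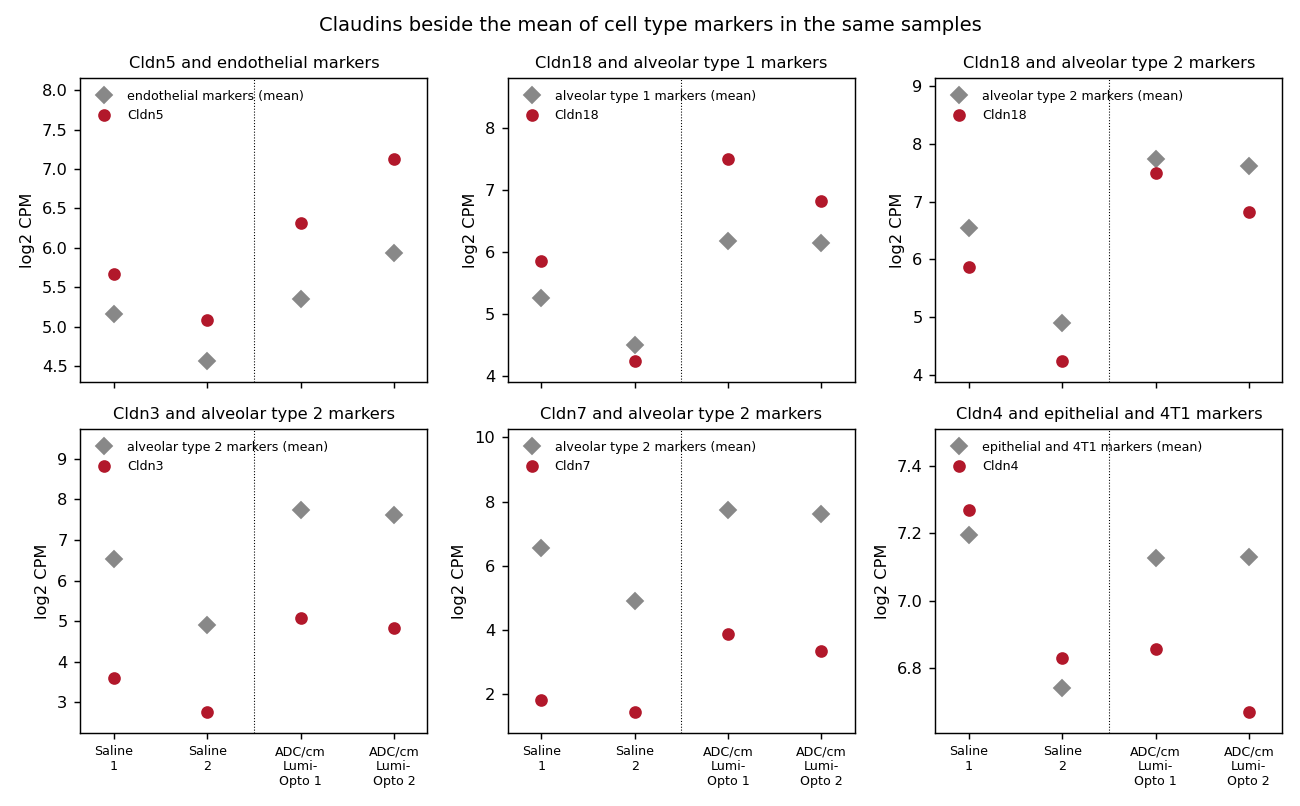
log2 CPM of 5 claudins (red circles) and the mean log2 CPM of cell type markers (grey diamonds) in each library. Cldn5 and Cldn18 stand in the same order of libraries as their endothelial and alveolar markers, and Cldn4 lies above the mean epithelial marker in both saline libraries and below it in both treated libraries.

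Cldn3 and Cldn7 are barrier claudins of many simple epithelia. Cldn3 (ENSMUSG00000070473, chr5:135015068-135016326, + strand) had 12.1 and 6.74 CPM in the saline libraries and 33.7 and 28.4 CPM in the treated libraries. The groups did not overlap, and the log2 fold change was 1.72 (SE 0.31), from 9.40 ± 3.77 to 31 ± 3.74 CPM (SD, n = 2 each). Cldn7 (ENSMUSG00000018569, chr11:69855605-69858711, + strand) is a claudin of basolateral membranes as well as of the tight junction. It had 3.44 and 2.63 CPM against 14.7 and 9.997 CPM. The groups did not overlap, and the log2 fold change was 2.02 (SE 0.35), with means of 3.03 ± 0.572 and 12.3 ± 3.31 CPM (SD, n = 2 each). The ratio of Cldn3 to Cldn7, per kb, stayed between 3.55 and 5.43 in the 4 libraries.

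Both genes were also set beside the markers of other cells. Relative to the mean type 2 marker, the difference between the groups was -0.19 for Cldn3 and 0.02 for Cldn7 on the log2 scale. Relative to the 6 club cell markers of the airway, which summed to 1327 and 106 CPM against 6847 and 3530 CPM, it was -1.92 and -1.71. Relative to 10 markers shared by epithelium and 4T1 cells, which include the keratins Krt8 and Krt18 and the adhesion molecule Epcam, it was 1.60 and 1.81. By group means, Cldn3 and Cldn7 thus differed about as much as the type 2 markers. They differed less than the club cell markers and more than the shared epithelial markers. Library by library, Cldn3 minus the mean type 2 marker was -2.93 and -2.13 in saline and -2.65 and -2.79 in treated libraries. For Cldn7 it was -4.71 and -3.45 against -3.84 and -4.28. Against type 2 markers, the saline libraries therefore differed from each other by more than the group means did. These comparisons have 2 libraries a group and no test, and the cell types' part in them was not tested.

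Cldn4 tightens epithelia against sodium and is induced in many carcinomas. The gene (ENSMUSG00000047501) lies on the - strand at chr5:134973973-134975788, and Cldn3 begins 39279 bases further on, with 0 annotated genes between them. Cldn4 had 154 and 114 CPM in the saline libraries and 116 and 102 CPM in the ADC/cmLumiOpto libraries. Treated replicate 1 lay between the saline values, so the groups overlapped. The means were 134 ± 28.5 and 109 ± 9.95 CPM (SD, n = 2 each), with a log2 fold change of -0.30 (SE 0.20). This value was -0.08 without saline replicate 1 and -0.50 without saline replicate 2, and -0.54 with the length trend removed.

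The 10 shared epithelial and 4T1 markers summed to 3245 and 3611 CPM in the saline libraries and to 3184 and 3115 CPM in the treated libraries. Of these 10, 3 were separated upward and 3 downward, near the 28.1% and 28.8% of all genes tested. Krt8 and Krt18 each had a log2 fold change of -0.25, and Epcam one of 0.18. Cldn4 was above the mean of the 10 markers by 0.07 and 0.09 in the saline libraries and below it by 0.27 and 0.46 in the treated libraries. As neighbours on the chromosome, Cldn3 and Cldn4 had unlike values. Per kb, the ratio of Cldn3 to Cldn4 was 0.113 and 0.0855 in the saline libraries and 0.419 and 0.402 in the treated libraries. The ratio of Cldn18 to Cldn4 was 0.153 and 0.0676 against 0.634 and 0.451, and that of Cldn5 to Cldn4 was 0.423 and 0.382 against 0.883 and 1.75. Cldn7 gave ratios to Cldn4 of 0.0208 and 0.0216 against 0.118 and 0.0916. In each of these 4 ratios, chosen after their values were seen, the treated libraries lay above the saline libraries. The numerators were genes already higher in both treated libraries, and Cldn4 alone had a negative fold change. The order of the ratios therefore restates those values and adds no separate result.

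Cldn2 forms a pore for sodium and water and is known from leaky epithelia. The gene (ENSMUSG00000047230, chrX:138701577-138712135, + strand) had 31 and 14.9 CPM in the saline libraries and 50.0 and 23.3 CPM in the treated libraries. The groups overlapped, and the log2 fold change of 0.67 (SE 0.45) came to 0.02 without ADC/cmLumiOpto replicate 1. Cldn12 lacks the PDZ-binding end that ties most claudins to scaffolds. It is encoded on the - strand at chr5:5539537-5564958 (ENSMUSG00000046798) and had 27.9 and 24.9 CPM against 39.3 and 32.3 CPM. The groups were separated by the smallest fold change among the separated claudins, 0.44 (SE 0.19) on the log2 scale, and 0.29 without ADC/cmLumiOpto replicate 1.

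Cldn1, the claudin of the epidermal barrier, Cldn23 and Cldn6 were low. Cldn1 (ENSMUSG00000022512, chr16:26175392-26190591, - strand) had 33 and 17 counts in the saline libraries and 62 and 34 counts in the treated libraries. Its groups overlapped in CPM (2.06 and 1.15 against 3.51 and 1.66), and the log2 fold change was 0.68 (SE 0.57), or 0.05 without ADC/cmLumiOpto replicate 1. Markers of squamous epithelium stood beside it at 82.6 and 79.4 CPM in sum against 67.8 and 54.9, carried mainly by the basal keratin Krt14 (862 and 646 counts against 667 and 527) and by Sfn (413 and 481 against 473 and 545). The keratin Krt5 had 5 counts in saline replicate 1 and 0 in the other 3 libraries, and Krt6a had 0 in all 4. Cldn23 (ENSMUSG00000055976, chr8:36291866-36293713, - strand) had 9 and 12 counts against 24 and 34 counts. Its groups were separated, with a log2 fold change of 1.14 (SE 0.55). Cldn6, a claudin of embryonic epithelium (ENSMUSG00000023906, chr17:23898223-23901420, + strand), had 1, 3, 2 and 5 counts in saline 1, saline 2, ADC/cmLumiOpto 1 and ADC/cmLumiOpto 2. A difference of Cldn6 between the groups was not detectable at this depth.

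Markers of other cells also differed between the libraries. The 8 fibroblast markers summed to 5166 and 3552 CPM in the saline libraries and to 1777 and 1464 CPM in the treated ones. Of the 8, 6 were separated downward, against 28.8% of all genes tested. Ciliated cell markers summed to 13.3 and 6.81 CPM against 67.1 and 45.8 CPM, erythroid markers to 1110 and 352 against 1871 and 2075, and neutrophil markers to 1120 and 462 against 1133 and 7828. Macrophage markers (999 to 1285 CPM) and mesothelial markers (135 to 229 CPM) overlapped between the groups. T cell markers summed to 40.6 and 15.3 against 84.6 and 36.8 CPM, so these sums also overlapped. Their fold changes were positive for 6 of 6, down to a log2 value of 0.05 (SE 0.83) for Cd4. Only 2 of the 6 were separated upward, against 28.1% of all genes tested. B cell markers summed to 4.50 and 1.28 against 6.35 and 6.58 CPM. Their part in the claudin differences was not tested.

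The remaining claudin genes, with Cldnd1 and Cldnd2 counted among them, were tested in the fit across all genes, since the choice of the 10 did not name them. This list held 27 genes, of which 16 had 0 counts in all 4 libraries, 7 had counts too few for a test and 4 were tested. By edgeR's quasi-likelihood test, 0 of the 4 had an adjusted p under 0.05, and 3 had an unadjusted p under 0.05, all with higher values in the treated group. Among all genes tested, 11% were higher at that unadjusted threshold. DESeq2 called 1 of the 4 (9.63% of all genes with an adjusted p) and edgeR's exact test 2 (7.64%). Cldnd1 had a log2 fold change of 0.06 (SE 0.20, edgeR adjusted p = 0.876). Cldn10, whose forms make anion or cation pores, had 46 and 14 counts in the saline libraries and 132 and 130 in the treated libraries, with a log2 fold change of 1.84 (SE 0.55, edgeR adjusted p = 0.139). Cldn15, a cation pore claudin of the intestine, had 11 and 15 counts against 50 and 42 (log2 fold change 1.52, SE 0.52, edgeR adjusted p = 0.165). Cldn9 had 4 and 0 counts against 18 and 17, too few in saline for a firm fold, with a log2 fold change of 2.78 (SE 1.02, edgeR adjusted p = 0.180). Cldn9 lies 137 bases from Cldn6, which had 1 and 3 counts against 2 and 5. Cldn10, Cldn15 and Cldn9 had both treated libraries above both saline libraries, as 28.1% of all genes tested had.

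A list of 46 other genes of the tight junction, of which 44 could be tested, was set beside the claudins. By edgeR's quasi-likelihood test 0 of the 44 had an adjusted p under 0.05. DESeq2 placed 12 past it (9.63% of all genes with an adjusted p) and edgeR's exact test 9 (7.64%). At an unadjusted p under 0.05, 8 were higher and 13 lower in the treated group, where the shares among all genes tested were 11% and 12.2%. The median log2 fold change of the 44 was 0.004, against 1.14 for the claudins described. Those claudins were chosen with their values known, so no conclusion is drawn from this gap.

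The cytoplasmic scaffolds, which bind the tails of claudins, had mostly negative fold changes. Of 15 tested, 2 were higher and 8 lower at an unadjusted p under 0.05, where the shares among all genes tested were 11% and 12.2%. The median log2 fold change of the 15 was -0.44. These are long genes, and with the length trend removed the counts were 2 higher and 4 lower and the median was -0.24. In that fit 3048 of all 15320 genes had an unadjusted p under 0.05, in either direction. The polarity scaffold Pard3 had 126 ± 32 CPM in saline and 66.7 ± 1.30 CPM in treated lungs (SD, n = 2 each), with a log2 fold change of -0.92 (SE 0.21, edgeR adjusted p = 0.119). Patj, of the Crumbs polarity complex, had a log2 fold change of -0.73 (SE 0.17, edgeR adjusted p = 0.118). Tjp1 encodes ZO-1, which links claudins to actin. Its log2 fold change was -0.44 (SE 0.17, edgeR adjusted p = 0.195), and -0.24 with the length trend removed. The sign was opposite to those of Cldn3, Cldn5, Cldn7 and Cldn18 and the same as that of Cldn4 (-0.30).

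Other membrane proteins of the junction had values on both sides of 0. Of 11 tested, 3 were higher and 2 lower at an unadjusted p under 0.05, against 11% and 12.2% of all genes tested. Esam, an adhesion molecule of endothelium and platelets, had 39.3 ± 5.20 CPM in saline and 80.0 ± 7.82 CPM in treated lungs (SD, n = 2 each, log2 fold change 1.03, edgeR adjusted p = 0.116). Ildr1 and Ildr2 are angulins, the proteins of junctions where 3 cells meet. Ildr1 had 10 and 9 counts against 81 and 49 (log2 fold change 2.49), and Ildr2 had 30.0 ± 0.542 against 14.6 ± 0.695 CPM (SD, n = 2 each, log2 fold change -1.04), both at an edgeR adjusted p of 0.116. Occludin (Ocln), the other classic strand protein, had a log2 fold change of 0.35 (SE 0.26, edgeR adjusted p = 0.436).

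Among proteins that partner claudins or cadherins at the junction, Epcam is known to bind and stabilise Cldn7. Epcam had a log2 fold change of 0.18 (SE 0.26, edgeR adjusted p = 0.709), beside 2.02 for Cldn7 itself. E-cadherin (Cdh1) had 0.36 (SE 0.23, edgeR adjusted p = 0.384). VE-cadherin (Cdh5), whose signalling is known to favour Cldn5 transcription by restraining Foxo1, had 0.02 (SE 0.24, edgeR adjusted p = 0.975). Foxo1, a known repressor of Cldn5, had 83.7 ± 0.41 CPM in saline and 44.4 ± 6.19 CPM in treated lungs (SD, n = 2 each, log2 fold change -0.91, edgeR adjusted p = 0.116). With the length trend removed the log2 fold change of Foxo1 was -0.70. Of the 14 transcription factors tested, 2 were higher and 3 lower at an unadjusted p under 0.05, against 11% and 12.2% of all genes tested. Nkx2-1, the lung lineage factor that drives the lung form of Cldn18, had 111 and 29 counts in the saline libraries and 282 and 478 counts in the treated libraries, with a log2 fold change of 2.14 (SE 0.56, edgeR adjusted p = 0.123). The epithelial repressors Zeb2 and Zeb1 had log2 fold changes of -0.52 (SE 0.17, edgeR adjusted p = 0.158) and 0.06 (SE 0.26, edgeR adjusted p = 0.916). Both are long genes, and with the length trend removed the values were -0.12 and 0.31. Whether any of these partners or factors acted on a claudin in these libraries was not tested.

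**Figure D4:**
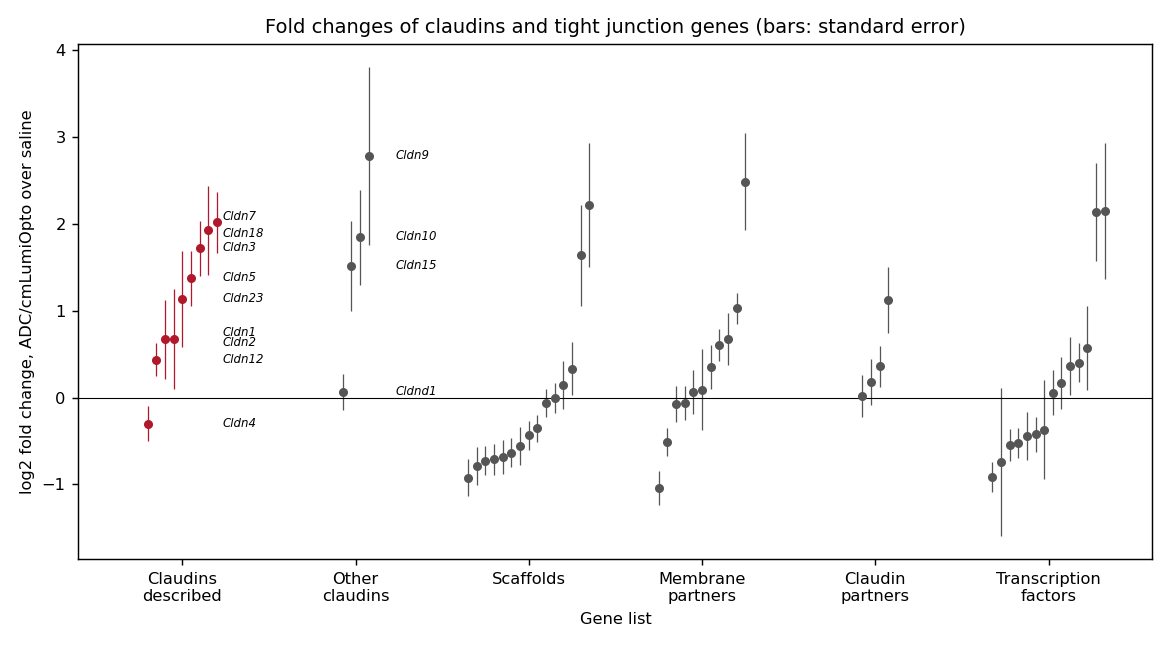
log2 fold change of ADC/cmLumiOpto over saline with its standard error for each tested gene, by list. The claudins described, which were chosen with their values known, run from -0.30 for Cldn4 to 2.02 for Cldn7. Most scaffolds lie below 0, with a median of -0.44.

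The genes whose pattern over the 4 libraries was most like that of a claudin were taken by the root mean square difference of log2 CPM, each gene centred on its own mean. For Cldn18 the nearest was Ap1m2, a subunit of the epithelial sorting adaptor AP-1B, at 0.0289, followed by Angptl7 at 0.0595 and an unnamed gene (ENSMUSG00000121164) at 0.103. For Cldn3 they were Cd300a (0.0493), Zfp712 (0.0507) and the epithelial mucin Muc1 (0.0562). For Cldn7 they were the desmosomal cadherin Dsg1c (0.0315), Ak7 (0.0689), a gene of motile cilia, and Zfp14 (0.0705). Dsg1c was near the floor, at 0.0674 to 0.850 CPM, and its log2 fold change was 2.79, against 2.02 for Cldn7. ENSMUSG00000121164 was also low (0.0674 to 1.47 CPM), with 2.43 against 1.93 for Cldn18. At such levels the prior count of 2 shrinks log2 differences, so these 2 matches are weak. The nearest to Cldn5 were Cd300lb (0.0420), 2210406H18Rik (0.0474) and Cebpd (0.0532), and the nearest to Cldn4 were Cep97 (0.0271), Pelp1 (0.0316) and Gpr157 (0.0352). None of these lists held another claudin. With 4 libraries and 15320 genes, such closeness describes these libraries only.

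Some genes beside the claudins on the chromosome are listed here. Their values cannot show whether reads were shared, because the counting program and its strand setting were not given. The antisense RNA Wbscr25, which overlaps Cldn3, had 1 count in all, and Gm16004, which overlaps Cldn18, had 0. Elp5 lies 336 bases from Cldn7 and had a log2 fold change of 0.12 (SE 0.19, edgeR adjusted p = 0.736), against 2.02 for Cldn7. Cdc45 lies 2184 bases from Cldn5 and had -0.35 (edgeR adjusted p = 0.344), against 1.37 for Cldn5.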

How the data were processed

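Poly(A) RNA of lungs with 4T1 metastases (tumour cells per the labels, lung tissue per the methods) was sequenced on an Illumina platform by the study. The authors deposited 1 table of raw read counts per gene for 4 libraries, 2 saline and 2 ADC/cmLumiOpto. Reads were aligned with HISAT2, which the submitters' processing notes list with HISAT, TopHat2 and mm39, while the methods name GRCm38. Gene coordinates are printed as mm39, the build in the notes: of 52073 identifiers shared with a GRCm38 annotation, 1472 had the same start and end. The counting program and its strand setting are not given in the sources used here, so reads of overlapping antisense genes cannot be told apart.

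Groups were taken from the treatment labels. Genes passing filterByExpr (minimum count 10, minimum total 15) were scaled by TMM and fitted with edgeR 4.0.16 (glmQLFit and glmQLFTest, R 4.3.3), with Benjamini-Hochberg adjustment over all 15320 genes and a threshold of 0.05. The prior count was 0.125 for fold changes and 2 for the log2 CPM of marker comparisons and of the search for similar patterns. The SE of a log2 fold change is its absolute value over the square root of the quasi-likelihood F statistic. That statistic uses dispersions moderated across genes. CPM per kb divides by the gene length in the deposited table, an exon length. Fits by DESeq2 1.42.0, edgeR's exact test, other scalings and filters, a replicate block, a lowess trend on gene length (span 0.3) and the removal of each library were alternatives. The scripts were tested on simulated data. Claudins and gene lists were chosen with earlier results of these data known. The genes named were the 10 claudins, the other claudins and junction genes with the smallest p within each list, a few junction genes fixed by name, and for 5 claudins the 3 genes of most similar pattern. Some junction genes that this rule names are not reported here. The neighbouring genes named, Cdc45 and Elp5, and the Cldn4 ratios were chosen after their values were seen. Promoter windows came from RefSeq on GRCm38.p6, and 1 claudin, Cldn23, had no window.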

Additional observations from a re-analysis of the deposited data

How the results depend on the processing

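The log2 fold change of each of the 9 measurable claudins kept its sign under each of the 15 alternatives that gave it a value (Cldn23 had none when 10 counts were required in every library), and their median ran from 0.91 to 1.28. Leaving out saline replicate 1 moved Cldn3 to 2.19 and Cldn18 to 2.94, leaving out saline replicate 2 moved Cldn23 to 1.42, and removing the trend on gene length moved Cldn4 to -0.54. Removing that trend also changed the excess of Cldn5 over the endothelial markers to 0.23 and that of Cldn4 over the epithelial and 4T1 markers to -0.59. Over all genes, log2 fold change and gene length had a Spearman correlation of -0.34 across genes, which are not independent replicates. Claudins with both treated libraries above both saline ones numbered 6 to 8 when 1 library was left out, where 37.0% to 40.9% of all genes tested were so placed. The count of genes past an adjusted p of 0.05 was 0 by edgeR's quasi-likelihood test, 1332 by DESeq2, 1170 by edgeR's exact test, 2259 without the filter on low counts, and 0 to 218 with 1 library left out, where the lone library is assumed to vary like the other group. As shares of all genes these were 9.63% by DESeq2, of genes with an adjusted p, 7.64% by the exact test and 8.84% without the filter. The same counts for the other claudins were 0, and 1 by DESeq2, 2 by the exact test and 1 without the filter. For the tight junction genes they were 0, and 12 by DESeq2, 9 by the exact test, 16 without the filter, and 0 to 3 with 1 library left out. Upper-quartile scaling moved the median log2 fold change of all genes from 0.03 to 0.11. The labels number the samples 1 and 2 in both groups, but same-numbered samples deviated together with a correlation of only 0.0985 and nothing states a pairing. A fit with the replicate number as a block called 607 genes (3.96% of those tested), 6 of them tight junction genes. The depth of 15263375 counts in the smallest library makes 3 counts equal to 0.202 CPM, which limits statements on Cldn6. This floor covers counting error only.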
